A study of Mus musculus with 2 samples.

Results

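The matrix metalloproteinases (Mmp), the membrane-anchored proteases Adam, the secreted proteases Adamts, the related Adamtsl proteins and the tissue inhibitors Timp were described in endometrial cells of pregnant mice. Members were taken by symbol alone, as every gene named Mmp, Adam, Adamts, Adamtsl or Timp followed by a number and an optional letter. The rule gave 82 of the 19070 genes in the count tables, with 22 Mmp, 33 Adam, 18 Adamts, 5 Adamtsl and 4 Timp genes. The rule itself uses symbols and no measured value.

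The study compared endometrial tissue of Erbb3 f/f females, the controls, with that of Erbb3 d/d females, described by the submitters as deleted for Erbb3 in the stroma, on day 3 of pregnancy. Erbb3 is a receptor of the ErbB family, and the series asks how stromal Erbb3 acts on the shape of uterine glands. RNA was counted cell by cell with the Chromium Flex assay, in which pairs of probes bind transcripts in fixed cells and are counted as unique molecular identifiers (UMIs). The labels name several kits for the same libraries, one of them a 3' kit named without the word Flex, and what is said of probes below rests on the Flex workflow that the labels and the design text name. There was 1 library per genotype, the number of mice in each library and what drives the deletion were not given in the sources used here, and the library names end in digits of unstated meaning. No test could therefore be run, and every difference below is one between 2 preparations. Values of sums carry 95% Poisson intervals and ratios carry 95% exact conditional binomial intervals, both of which cover counting error only.

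Mmp and Adamts proteins are zinc proteases that cut the collagens, proteoglycans and glycoproteins between cells, and Timp proteins block them. Adam proteases sit in the cell membrane and release the outer part of other membrane proteins, among them growth factors that bind ErbB receptors. In the uterus these enzymes are known for the remodelling of matrix around epithelium, decidua and vessels.

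After filtering, the f/f library held 5503 cells with 5517795 UMIs and the d/d library 1830 cells with 1712695 UMIs, with medians of 809 and 764.5 UMIs per cell. No full barcode occurred in both libraries, and 158 barcodes shared their first 16 bases. Levels are given as CPM, the UMIs of a gene in a set of cells scaled to a common total. Erbb3 itself was at 79.3 CPM in f/f epithelium and 52.2 CPM in d/d epithelium, and at 11.4 and 6.43 CPM in stroma, from 16 and 2 UMIs. The part of the gene that the probes cover was not given, so these values do not check the deletion. Cells were put in a class by marker UMIs, at least 3 of the class and at least 3 times those of any other class. This gave 1366 f/f and 474 d/d epithelial cells, 1428 and 330 stromal cells, and 97 and 25 endothelial cells, while 46.0% and 53.1% of cells were in no class. Each class is a range on a marker count and not a cell type, since 455 and 152 of the epithelial cells and 233 and 69 of the stromal cells lay at or near the limits. In epithelial cells the median was 4 UMIs of epithelial markers and 0 of all other marker lists in both libraries. In stromal cells it was 8 and 7 UMIs of stromal markers and 1 of the others. Summed over the stromal cells, the 15 epithelial markers stood at 412 CPM in f/f and 647 in d/d. The 10 myeloid markers were at 189 and 347 CPM and the 7 mesothelial markers at 131 and 251 CPM. Of the other lists of markers, that of smooth muscle and pericyte was lower in d/d, at 255.5 and 209.1 CPM, and the rest were higher. The median mitochondrial share was 1.23% and 2.97%. The part of these markers and of the mitochondrial share in the stromal differences below was not tested.

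Members made up 0.247% of all f/f UMIs and 0.225% of all d/d UMIs. Of the 82 members, 14 had no UMI in either library, 22 had 1 to 19 and 46 had at least 20. The undetected genes were mostly Adam genes, with 11 of the 21 in the group of testis and other Adam genes at 0 UMIs. All 7 Adam genes in one stretch of chromosome 8 (40675077 to 43710049, GRCm38) together gave 0 f/f UMIs and 1 d/d UMI. The 9 Mmp genes of the chromosome 9 group (7272514 to 7699585), which holds the collagenases, Mmp3, Mmp10 and matrilysin among others, gave 79 and 88 UMIs, and 7 of them stayed under 20. The 3 collagenases Mmp1b, Mmp8 and Mmp13 had 1 UMI per library in all. A probe count of 0 limits the level to 0.544 CPM in f/f and 1.75 CPM in d/d, the level of 3 counts over all cells used. Probes differ in efficiency, so levels are compared between cells for 1 gene and not between genes.

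The classes were compared first, to see where each protease was made. Among the 22 members with at least 20 UMIs in stroma and epithelium together in each library, 15 were higher in stroma in both libraries and 5 higher in epithelium in both. Adam8 and Adam9 differed in side between the libraries, with ratios near 0 in each. On the epithelial side Adam17 was also near 0 in f/f (-0.06, interval -0.51 to 0.40). The d/d intervals of Adam17, Adam10 and Adamts16 on that side held 0. On the stromal side those of Adam15, Adamts9 and Mmp14 did. Across the 21 members with UMIs in both classes, the log2 ratio of stroma over epithelium in f/f and that in d/d had a Pearson r of 0.95, a description over genes that share libraries and depth. With endothelial cells added for f/f, where there were at least 50 of them, 23 members could be ranked over classes in each library. The class with the highest level was the same for 15 of them, stroma for 12 and epithelium for 3. In f/f 7 members were highest in endothelial cells, namely Adam9, Adam10, Adam15, Adamts1, Adamts9, Adamtsl1 and Mmp15. The d/d library could not be ranked on that class, so these 7 could not have the same highest class in both. Mmp2, Adam12, Adamts2 and Timp2 were at least 5-fold higher in stroma than in each other ranked class in both libraries.

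**Figure D1:**
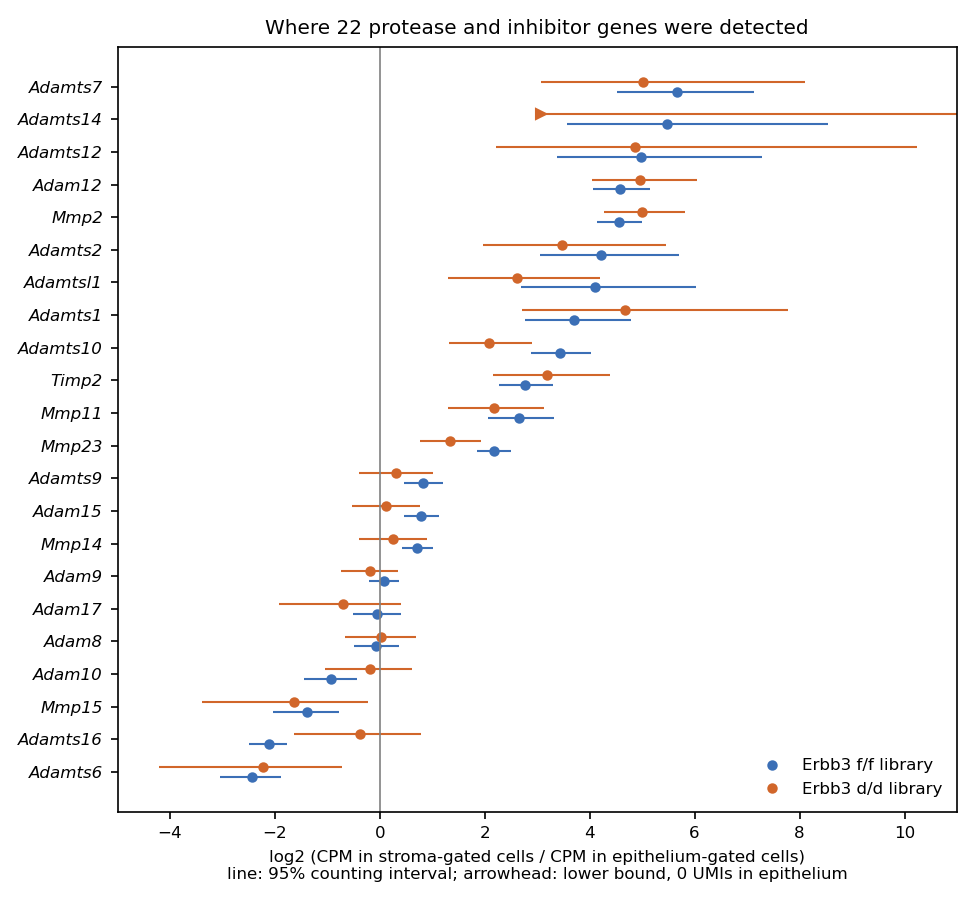
Each row is 1 of 22 genes, and the x axis gives the log2 ratio of its CPM in stromal over epithelial cells for f/f (blue) and d/d (orange), with 95% counting intervals. Adamts7, Adam12 and Mmp2 stand near 5 on the stromal side in both libraries, Adamts6 and Mmp15 on the epithelial side, and Adamts16 moves from -2.12 in f/f to -0.38 in d/d.

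The gelatinase Mmp2, which cuts denatured collagen and basement membrane, was a stromal gene in both libraries. It stood at 750.1 CPM (1054 UMIs) in f/f stroma against 31.8 in f/f epithelium, and at 1068 CPM (332 UMIs) in d/d stroma against 33.4 in d/d epithelium. Its stromal level was higher in d/d by 0.51 on the log2 scale (interval 0.33 to 0.69), which is below 2-fold. The intervals of the 2 stromal levels, 706 to 797 and 956 to 1189 CPM, did not overlap. The other gelatinase, Mmp9, known from leukocytes and trophoblast, had 2 and 5 UMIs over all cells.

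Mmp11, a stromelysin of connective tissue, was at 107 CPM in f/f and 142 in d/d stroma, against 16.9 and 31.3 in epithelium. Matrilysin, Mmp7, the smallest secreted Mmp and a product of epithelia, was at 22.1 and 29.3 CPM in epithelium and at 4.27 and 3.22 CPM in stroma. Mmp10, a stromelysin, had 5 and 11 epithelial UMIs, 3.25 and 23.0 CPM, and was under the minimum of 50 UMIs set for a comparison. Mmp7, Mmp10, Mmp11 and Mmp15 lie outside the rule for named genes and were chosen after their values were seen.

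The membrane-anchored Mmps differed in place. Mmp14, the activator of pro-Mmp2 at the cell surface, was at 168 CPM in f/f and 122 in d/d stroma and at 103 and 102 CPM in epithelium. Its epithelial ratio was 0.00 (interval -0.50 to 0.47) and its stromal ratio -0.46 (interval -0.99 to 0.04). Mmp23, which lacks the usual haemopexin domain, was at 290.4 and 222 CPM in stroma and at 64.3 and 87.8 CPM in epithelium. Mmp15 was on the epithelial side, at 57.8 and 50.1 CPM, against 22.1 and 16.1 CPM in stroma. Mmp16, chosen after its values were seen, was on the stromal side, with 36 stromal and 1 epithelial UMI in f/f and 7 and 1 in d/d.

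Mmp28, known as epilysin because epithelia make it, was lower in d/d epithelium. It had 59 UMIs (38.3 CPM) in f/f and 8 UMIs (16.7 CPM) in d/d epithelial cells, a log2 ratio of -1.20 (interval -2.48 to -0.13). The intervals of the levels, 29.2 to 49.4 and 7.22 to 32.9 CPM, overlapped, and the call rests on the 8 UMIs of d/d. Over all cells the ratio was -0.76, from 142 and 26 UMIs.

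Among the Adam sheddases, Adam12, a protease of mesenchymal and myogenic cells, was on the stromal side. Its stromal level was 480.4 CPM (675 UMIs) in f/f and 649.8 CPM (202 UMIs) in d/d, and its epithelial level 20.1 and 20.9 CPM. The stromal ratio was 0.44 (interval 0.20 to 0.67). Adam17 and Adam10 are the general sheddases. Adam17, which releases several ErbB ligands, was at 58.5 and 52.2 CPM in epithelium and at 56.2 and 32.2 CPM in stroma. Adam10, which cuts Notch receptors, was at 69.5 and 77.3 CPM in epithelium and at 36.3 and 67.6 CPM in stroma. The log2 ratio of stroma over epithelium for Adam10 was -0.94 in f/f (interval -1.45 to -0.44) and -0.19 in d/d (interval -1.04 to 0.62). In stroma its d/d over f/f ratio of 0.90 (interval 0.09 to 1.66) was the highest of the 28 members compared. Adam17 and Adam10 were named after their values were seen.

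Adam9, a widely made sheddase, was at 133 and 169 CPM in epithelium and at 140 and 148 CPM in stroma. Adam15, which carries an integrin-binding motif and is known from endothelium, was at 812 CPM in f/f endothelial cells (67 UMIs) and 532 CPM in d/d (13 UMIs). Its levels in stroma were 137 and 116 CPM and in epithelium 79.3 and 107 CPM. Adam8, a protease of leukocytes, also chosen after its values were seen, was higher in d/d in both classes without reaching 2-fold. It went from 65.0 to 104 CPM in epithelium (log2 ratio 0.69, interval 0.17 to 1.19) and from 61.9 to 106 CPM in stroma (0.78, interval 0.15 to 1.37).

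Within epithelium and within stroma, the member lowest in d/d relative to f/f was an Adamts gene. Adamts16 (ENSMUSG00000049538, chromosome 13, 70727802 to 70841811, minus strand, GRCm38), a secreted protease of the group with less studied substrates, was an epithelial gene in f/f. It had 381 UMIs (248 CPM, interval 223 to 274) in f/f epithelium and 20 UMIs (41.8 CPM, interval 25.5 to 64.5) in d/d epithelium. The intervals were far apart, and the log2 ratio was -2.57 (interval -3.29 to -1.92), 5.93-fold lower in d/d. In stroma it was at 56.9 CPM in f/f and 32.2 CPM in d/d, so that the d/d epithelial level was close to the stromal one.

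Adamts19 (ENSMUSG00000053441, chromosome 18, 58836667 to 59054060, plus strand, GRCm38), of the same group, was the stromal counterpart. It had 238 UMIs (169 CPM, interval 149 to 192) in f/f stroma and 12 UMIs (38.6 CPM, interval 19.95 to 67.4) in d/d stroma. The log2 ratio was -2.13 (interval -3.11 to -1.30), 4.39-fold lower in d/d, and the intervals of the levels did not overlap. Adamts4 (ENSMUSG00000006403, chromosome 1, 171250421 to 171260637, plus strand), an aggrecan- and versican-cutting enzyme, had 55 UMIs (39.1 CPM) in f/f and 3 UMIs (9.65 CPM) in d/d stroma. Its log2 ratio was -2.02 (interval -4.34 to -0.40), while over all cells it was -0.21 from 82 and 22 UMIs.

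Adamts6 and Adamts10 form a pair of close relatives that act on fibrillin-rich microfibrils, and they lay on opposite sides. Adamts6 was epithelial, at 120 CPM (185 UMIs) in f/f and 60.6 CPM (29 UMIs) in d/d epithelium against 22.1 and 12.9 CPM in stroma. Its epithelial ratio of -0.99 (interval -1.61 to -0.42) was just short of 2-fold. Adamts10 was stromal, at 210 and 177 CPM, with a stromal ratio of -0.25 (interval -0.69 to 0.17). In epithelium Adamts10 had 30 UMIs (19.5 CPM) in f/f and 20 UMIs (41.8 CPM) in d/d, a log2 ratio of 1.10 (interval 0.21 to 1.96). Those 50 UMIs are the smallest number that was compared, and without the filter on barcodes the ratio was -0.04.

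The other Adamts genes with at least 50 UMIs in stroma were within 2-fold there. Adamts3, a procollagen-processing relative of Adamts2 under that minimum and chosen after its values were seen, had 42 UMIs (29.9 CPM) in f/f and 4 UMIs (12.9 CPM) in d/d stroma, with an interval of -3.16 to 0.25 for the ratio of -1.22. Adamts7, a protease of cartilage oligomeric matrix protein, was at 198 CPM in f/f and 135 in d/d stroma (log2 ratio -0.55, interval -1.05 to -0.08) and at 3.90 and 4.18 CPM in epithelium. Adamts2, which removes the amino propeptide of fibrillar procollagens, was at 72.6 and 93.3 CPM in stroma. Adamts1, a versican-cutting enzyme induced by progesterone in the ovary, was at 84.0 and 106 CPM in stroma and at 6.498 and 4.18 CPM in epithelium, and in f/f endothelial cells it reached 267 CPM from 22 UMIs. Adamts9, which also cuts versican, was at 117 and 106 CPM in stroma, at 66.3 and 85.7 CPM in epithelium and at 715 and 614 CPM in endothelial cells, from 59 and 15 UMIs.

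Of the Adamtsl genes, which keep the Adamts-like repeats without a protease domain, Adamtsl1 was at 44.8 CPM in f/f and 77.2 in d/d stroma (log2 ratio 0.78, interval 0.04 to 1.48) and at 2.60 and 12.5 CPM in epithelium. Among the inhibitors only Timp2 in stroma had the 50 UMIs needed for a comparison by class, and it was not 2-fold apart. Timp2, which blocks Mmp2 and also takes part in its activation by Mmp14, was at 168 and 170.5 CPM in stroma and at 24.7 and 18.8 CPM in epithelium, with a stromal ratio of 0.02 (interval -0.44 to 0.46). Timp3, which binds matrix and inhibits several Adam proteases, was at 20.6 and 19.3 CPM in stroma and at 16.2 and 8.36 CPM in epithelium, the last from 4 UMIs. Timp1 had 17 and 5 UMIs in stroma, and Timp4 had 0 and 2 UMIs over all cells. Neither Timp1, Timp3 nor Timp4 reached 50 UMIs in either class.

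The members' counts were read against those of all genes with 50 or more UMIs in the class, summed over the 2 libraries. In epithelium 14 members could be compared. Of these, 2 were at least 2-fold lower in d/d (Mmp28 and Adamts16, 14.3%), and 1 was at least 2-fold higher (Adamts10, 7.14%). Over all 7629 genes the shares were 5.92% lower and 5.77% higher, so 2 and 1 of 14 members are too few to set apart from that background. In stroma 28 members could be compared, with 2 lower (Adamts4 and Adamts19, 7.14%) and 0 higher, beside 4.47% and 2.28% of 7555 genes. The median log2 ratio of the members was 0.11 in epithelium (-0.02 over all genes there) and -0.18 in stroma (-0.08 over all genes there). Over all cells used, 43 members could be compared, with 3 lower (Adamts16, Adamts19 and Adamts17) and 2 higher (Mmp7 and Adam28), beside 3.73% and 3.68% of 11058 genes. The count of 0 members higher in stroma has no test behind it, and the highest stromal ratio was 0.90.

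**Figure D2:**
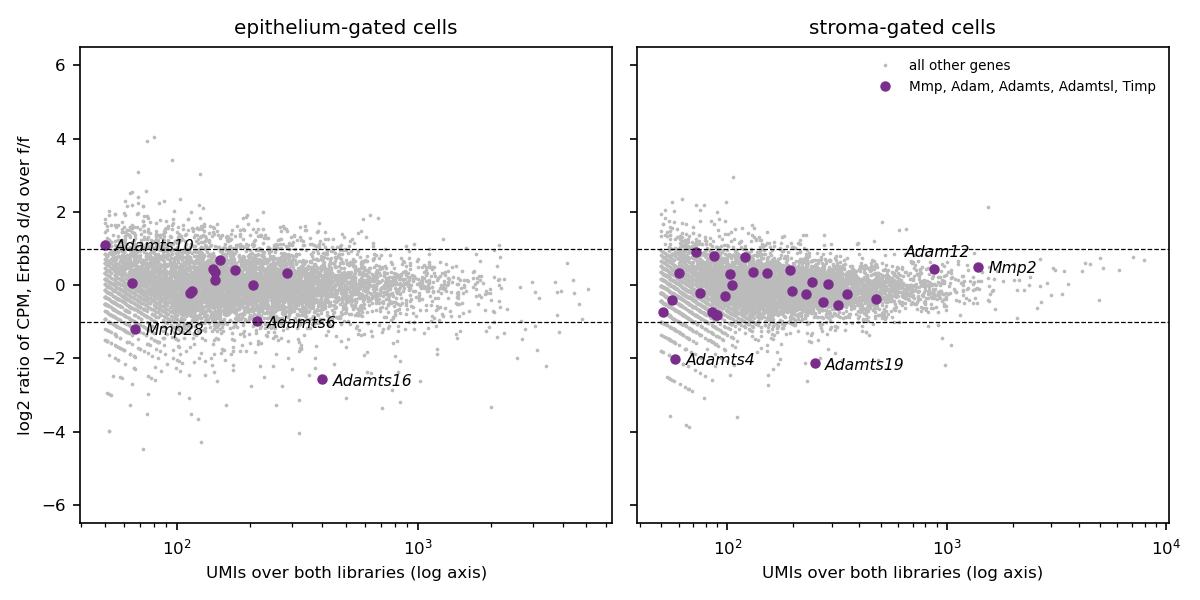
The x axis gives the summed UMIs of each gene on a log scale and the y axis its log2 ratio (d/d over f/f), for every gene with 50 or more UMIs (grey) and the members among them (purple), in epithelial and stromal cells, with dashed lines at 2-fold. Adamts16 at -2.57 in epithelium and Adamts19 at -2.13 in stroma lie below most genes of their depth, and the other members lie within the cloud or at its edge.

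**Figure D3:**
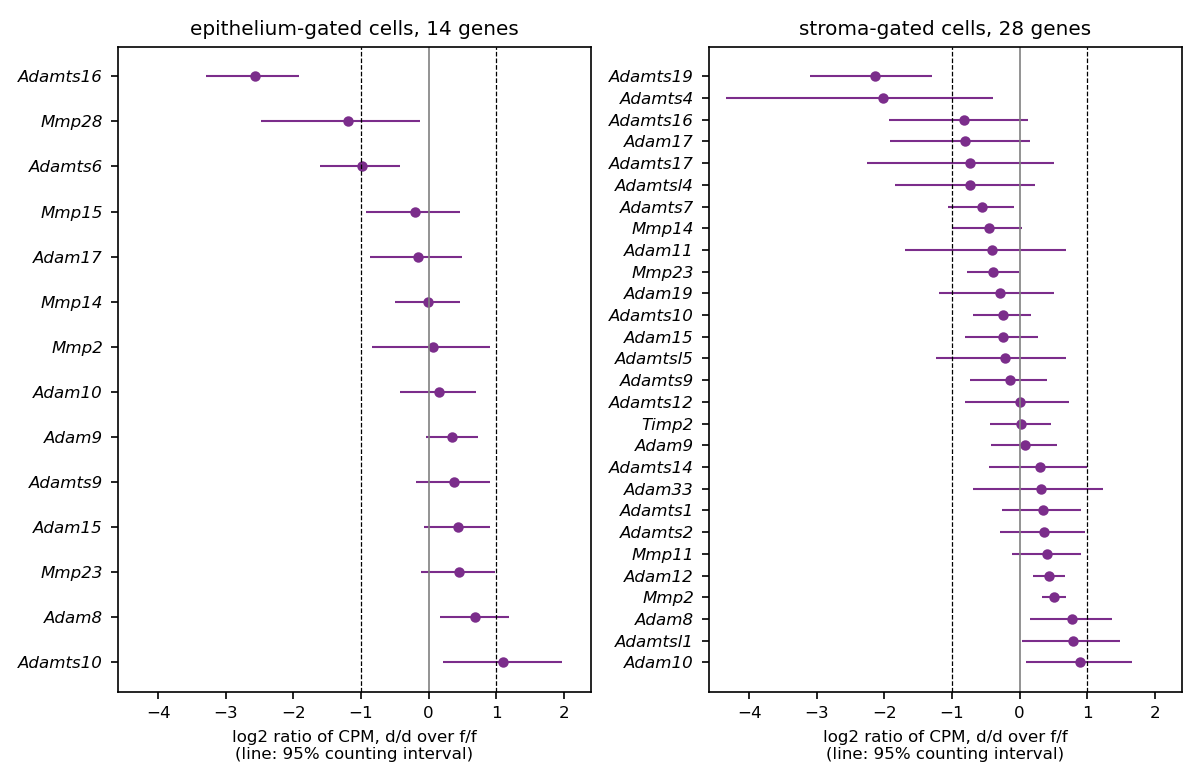
Points give log2 ratios (d/d over f/f) for the 14 members compared in epithelium and the 28 compared in stroma, and lines give 95% counting intervals. In epithelium 3 intervals lie below 0 (Adamts16, Mmp28, Adamts6) and 2 above it (Adam8, Adamts10), and in stroma 4 lie below and 5 above.

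By family, the summed Adamts genes were at 492 CPM in f/f epithelium (interval 457 to 528) and 280 CPM in d/d (interval 235 to 332). Of the 757 f/f UMIs in that sum, 381 came from Adamts16 and 185 from Adamts6. Of the 134 d/d UMIs, 20 came from Adamts16 and 29 from Adamts6. The lower d/d sum therefore does not describe the rest of the family. Such sums also add genes whose probes differ in efficiency. In stroma the Adamts sum was 1219 and 936 CPM. The Mmp sum was 341 and 384 CPM in epithelium and 1413 and 1628 in stroma, the latter made up mostly of Mmp2. The Adam sum was 487 and 612 CPM in epithelium and 1092 and 1325 in stroma, and the Timp sum 44.8 and 29.3 CPM in epithelium and 201 and 206 CPM in stroma.

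Each class held different kinds of cells in the 2 libraries, so the members were also read within groups of cells. Among epithelial cells, those led by UMIs of Lrp2 and Slc5a11 made up 43.3% in f/f (591 cells) and 3.38% in d/d (16 cells). Among stromal cells, those led by Col6a4 made up 8.61% in f/f (123 cells) and 44.8% in d/d (148 cells), and those led by Pth1r and Scube1 26.2% and 13.6%. These genes differ between the libraries, so the groups are a description and their sizes are not a result here.

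Adamts16 was lower in d/d also among the epithelial cells that were in none of the marked groups. This remainder held 631 cells (46.2% of the class) in the f/f library and 417 cells (88.0%) in the d/d library. It may still be a mix of cell kinds that differs between the libraries. The part of such a mix in the ratios of this remainder was not tested. Adamts16 was there at 252 CPM (151 UMIs) in f/f and 36.1 CPM (15 UMIs) in d/d, a log2 ratio of -2.80 (interval -3.67 to -2.03). In f/f its level was 233 CPM in the Lrp2 and Slc5a11 cells and 468 CPM (43 UMIs) in cells led by the gland genes Foxa2, Cxcl15, Syn2, Gulo, Wfdc3 and Spink1. The d/d library had 5 cells of the latter kind, with 0 UMIs of Adamts16 and room for 573 CPM at 3 counts, so no comparison was possible there. Adamts6 was at 108 CPM in f/f and 60.2 CPM in d/d cells of no marked group (log2 ratio -0.85, interval -1.57 to -0.16). Mmp28 was at 38.3 and 16.9 CPM in those cells (23 and 7 UMIs), with an interval of -2.65 to 0.08 for the ratio of -1.18. Without the Lrp2 and Slc5a11 cells, Adamts16 was the 1 member counted as 2-fold apart in epithelium. Adamts10 kept its ratio there (1.10) but was under the minimum of 50 UMIs, and Mmp28 was at -0.86.

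Adamts19 stood at nearly the same level in the 3 groups of f/f stromal cells, 169 CPM in Col6a4 cells, 174 in Pth1r and Scube1 cells and 167 in the rest. In d/d it was at 62.0 CPM (10 UMIs) in Col6a4 cells, at 0 UMIs in Pth1r and Scube1 cells, where 3 counts would be 72.7 CPM, and at 18.5 CPM (2 UMIs) in the rest. The ratio was -1.44 (interval -2.64 to -0.37) in Col6a4 cells and -3.18 (interval -6.24 to -1.29) in the rest, and the difference between these groups was not tested. Adamts4 had 33 UMIs in the f/f stromal cells of no marked group and 0 in the d/d ones. The interval of that ratio reached up to -0.21, so the 0 does not show a 2-fold difference.

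Mmp2 and Adam12 had ratios above 0 in each stromal group. In Col6a4 cells Mmp2 was at 708 CPM in f/f and 1172 in d/d (log2 ratio 0.73, interval 0.39 to 1.06) and Adam12 at 449.6 and 713 CPM (0.67, interval 0.24 to 1.09). In the stromal cells of no marked group the ratios were 0.30 (interval -0.03 to 0.61) for Mmp2 and 0.34 (interval -0.07 to 0.73) for Adam12, both with 0 inside the interval. The higher stromal level of Adamtsl1 was seen mainly in Col6a4 cells, with a ratio of 1.557 (interval 0.129 to 3.198) from 6 and 16 UMIs. Its ratio was 0.497 (interval -2.675 to 2.601) in Pth1r and Scube1 cells and 0.061 (interval -1.465 to 1.302) in the rest. Without the Col6a4 cells it was 0.204.

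**Figure D4:**
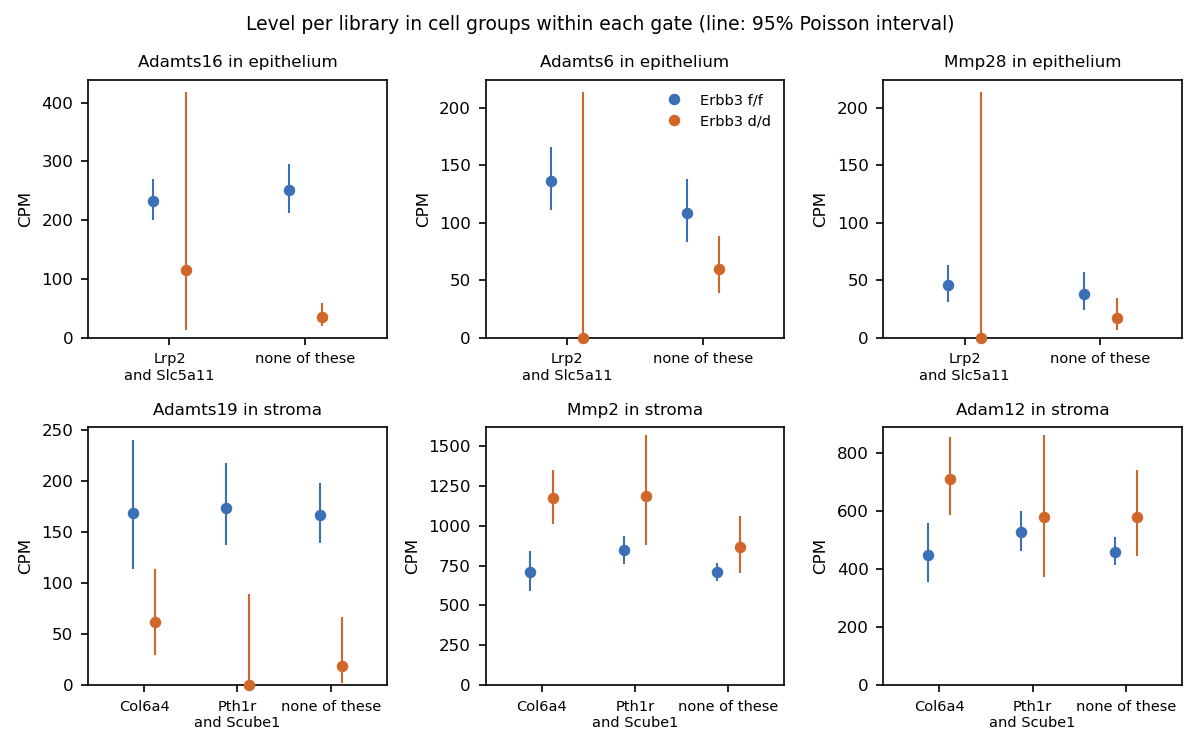
CPM of 6 members is shown per library (f/f blue, d/d orange) in groups of cells within the epithelial and stromal classes, with 95% Poisson intervals. For epithelium, 2 groups are drawn, and the d/d Lrp2 and Slc5a11 group has 16 cells and hence wide intervals. Adamts16 at 252 and 36.1 CPM in the unmarked epithelial cells, and Adamts19 in all 3 stromal groups, are lower in d/d.

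A clustering of both libraries that left out all 82 members gave 13 clusters, and 9 of them had at least 50 cells in each library. It placed members in cell types that the marker classes held too few cells of. In f/f, Adamts16 was highest in cluster 3, an epithelial-like cluster led by Fam83a, Syn2 and Cxcl15 (818 f/f and 79 d/d cells). Its level there was 632 CPM (434 UMIs) in f/f and 102 CPM (6 UMIs) in d/d, a log2 ratio of -2.62 (interval -4.08 to -1.49). In cluster 7, an epithelial-like cluster led by Clca3b and Ltf (570 and 375 cells), it was at 109 CPM (51 UMIs) and 104 CPM (29 UMIs), a ratio of -0.06 (interval -0.77 to 0.62). In the epithelial-like cluster 0, led by genes of cell division such as Kif11 and Aurkb (158 and 559 cells), it was at 123 and 11.1 CPM. The difference between clusters was not tested.

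Adamts16 also had UMIs in clusters named as other cell types. In f/f it was at 131 CPM in the myeloid-like cluster (14 UMIs), at 98.9 CPM in the mesothelial-like cluster and at 61.6 CPM in the endothelial-like cluster. The d/d values there were 22.5 CPM, 7.55 CPM and 0 UMIs. In f/f the levels of cluster 7 and cluster 0 lay within the range of these clusters, and that of cluster 3 lay well above it. In d/d the levels of cluster 7 (104 CPM) and cluster 3 (102 CPM) lay above the range and that of cluster 0 (11.1 CPM) within it. The levels of cluster 7 were near-equal in the 2 libraries, while those of the myeloid-like, mesothelial-like and endothelial-like clusters were lower in d/d. Whether cells of those clusters make Adamts16 themselves was not tested. The part of free RNA or of doublets in these values was not tested.

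Adam33, a protease known from smooth muscle and fibroblasts and chosen after its values were seen, was at 504 CPM (163 UMIs) in f/f and 460.3 CPM (61 UMIs) in d/d cells of the mesothelial-like cluster 9, and at most 37.5 CPM in the other clusters of at least 50 cells per library. Adamtsl1 was also high in cluster 9, at 343 and 219 CPM, with a ratio of -0.65 (interval -1.29 to -0.05). Timp2 was at 377 and 294 CPM there, above its 151 and 121 CPM in the stroma-like cluster 10. Mmp2 in cluster 9 was at 161 CPM (52 UMIs) in f/f and 377 CPM (50 UMIs) in d/d, a ratio of 1.23 (interval 0.64 to 1.82).

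In the endothelial-like cluster 11 (193 and 59 cells) Adamts9 was at 582 CPM (104 UMIs) and 841 CPM (44 UMIs), Adam15 at 699.5 and 535 CPM and Adamts1 at 202 and 134 CPM, each with an interval of the ratio that held 0. Adam8 was highest in the myeloid-like cluster 4 in both libraries, at 244 and 293 CPM (26 and 13 UMIs). Adamts19 in the stroma-like cluster 10 (847 and 111 cells) was at 209 CPM (137 UMIs) in f/f and 13.4 CPM (1 UMI) in d/d. In cluster 1, which held stromal and muscle markers and got no name, Adamts19 was at 132 and 48.7 CPM.

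**Figure D5:**
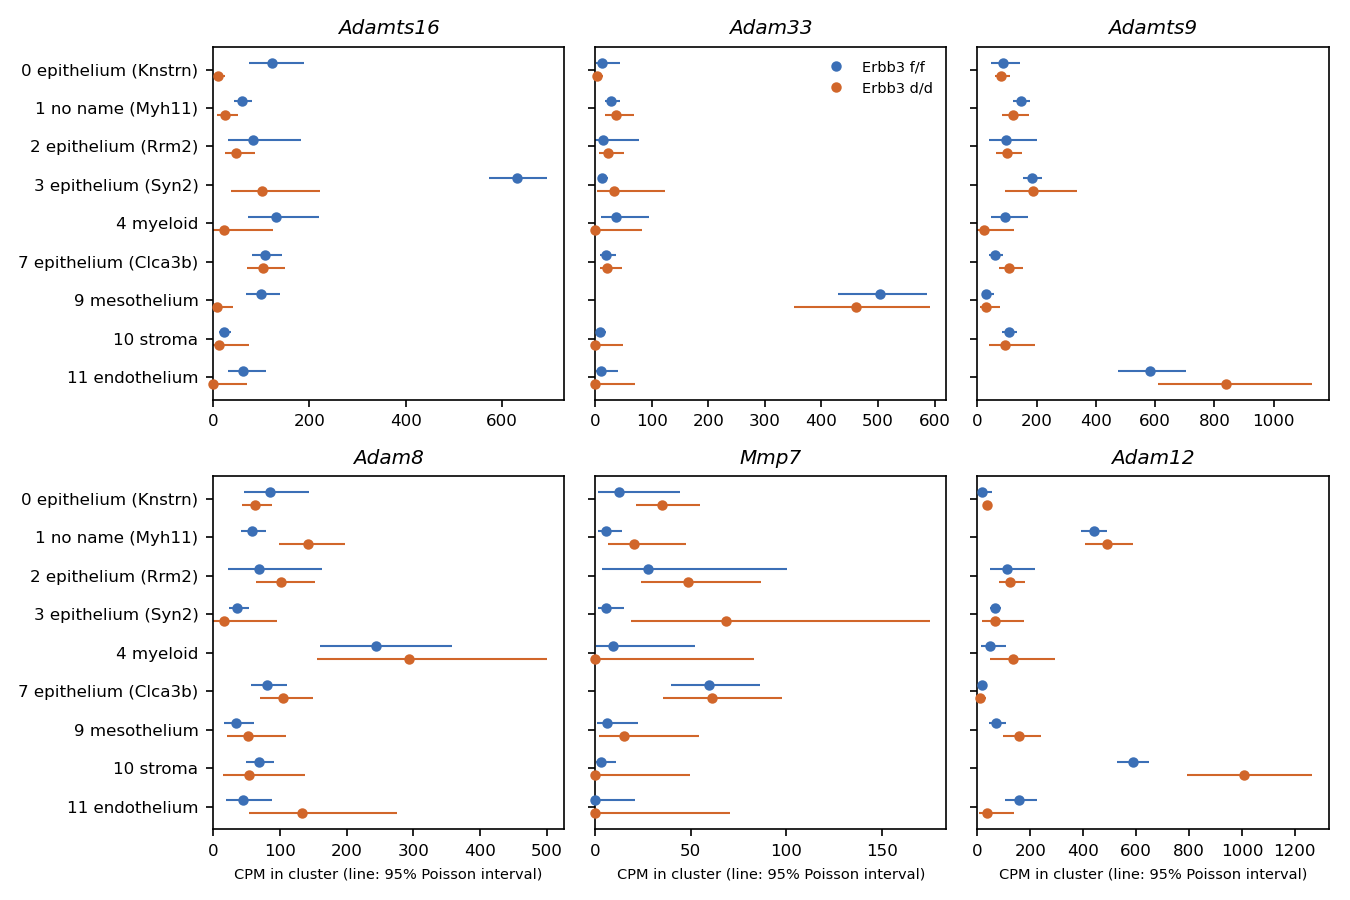
CPM of 6 members is shown in the 9 clusters with at least 50 cells per library (f/f blue, d/d orange; lines are 95% Poisson intervals; names in brackets are leading genes). Adam33 stands out in mesothelium, Adamts9 in endothelium, Adam8 in the myeloid cluster and Adam12 in stroma, in both libraries, while Adamts16 in cluster 3 is at 632 CPM in f/f and 102 in d/d.

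Over all cells used, 3 further members were apart, each chosen here after its values were seen. Adamts17, of the Adamts16 group, had 110 UMIs (19.9 CPM) in f/f and 14 UMIs (8.17 CPM) in d/d, a log2 ratio of -1.29 (interval -2.20 to -0.48), and 23 and 1 UMIs in epithelium. Mmp7 had 60 UMIs (10.9 CPM) in f/f and 59 UMIs (34.4 CPM) in d/d, a ratio of 1.66 (interval 1.12 to 2.21). Its level in the Clca3b and Ltf cluster 7 was 59.7 and 61.1 CPM (ratio 0.03, interval -0.93 to 0.95). Adam28, a protease with a known lymphocyte form, had 35 UMIs (6.34 CPM) and 51 UMIs (29.8 CPM), a ratio of 2.23 (interval 1.58 to 2.90). In epithelium Adam28 had 19 and 20 UMIs, 12.3 and 41.8 CPM. Shares of cell kinds differ between the libraries, and a change in make-up cannot be told apart from a change per cell in these sums.

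The RefSeq promoter table (GRCm38.p6, 250 bases before to 50 after the start) held 51 of the 82 members. Among the members called 2-fold apart in epithelium, stroma or all cells, 3 promoters that the table holds are shown. Mmp28 had a lower level in d/d epithelium, Adamts17 a lower level in d/d over all cells and Mmp7 a higher level in d/d over all cells. Adamts16, Adamts10, Adamts19, Adamts4 and Adam28 had no entry in the table used. Capitals mark matches to 1 of 4 motifs searched on both strands: the AP-1 site TGANTCA, the progesterone receptor half-site AGAACA, the full palindromic estrogen response element and the TCF site CTTTGAA.
Mmp28, chr11:83462991-83463290, minus strand: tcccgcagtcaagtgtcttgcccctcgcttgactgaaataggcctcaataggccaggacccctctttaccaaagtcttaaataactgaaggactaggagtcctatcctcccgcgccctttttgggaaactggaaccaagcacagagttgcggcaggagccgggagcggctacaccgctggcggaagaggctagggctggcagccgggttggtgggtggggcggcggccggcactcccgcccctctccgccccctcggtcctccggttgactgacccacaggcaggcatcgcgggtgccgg
Adamts17, chr7:66839485-66839784, plus strand: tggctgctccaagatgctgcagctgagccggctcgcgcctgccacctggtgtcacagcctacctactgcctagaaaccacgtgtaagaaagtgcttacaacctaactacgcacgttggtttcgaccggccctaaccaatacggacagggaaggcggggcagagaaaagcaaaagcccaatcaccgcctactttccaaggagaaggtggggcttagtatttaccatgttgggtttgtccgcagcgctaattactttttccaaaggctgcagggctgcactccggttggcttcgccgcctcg
Mmp7, chr9:7691840-7692139, plus strand, 1 of 2 starts: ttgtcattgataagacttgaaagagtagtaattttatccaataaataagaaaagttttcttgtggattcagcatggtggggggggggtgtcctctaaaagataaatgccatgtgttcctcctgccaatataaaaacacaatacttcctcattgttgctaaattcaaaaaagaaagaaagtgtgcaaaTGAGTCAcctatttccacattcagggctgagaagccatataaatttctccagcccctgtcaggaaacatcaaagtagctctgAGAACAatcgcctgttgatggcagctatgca
The Mmp28 and Adamts17 windows held none of the 4 motifs. The Mmp7 window held an AP-1 match that begins 63 bases before the start and a match to the progesterone receptor half-site. Over all 32851 promoters of this length the AP-1 letters occurred in 7.81% and the half-site letters in 18.97%, and over the 56 member promoters in 21.4% and 19.6%. Among the members with the AP-1 letters, only Adam19, Mmp7 and Mmp10 had at least 20 UMIs over both libraries. The TCF letters occurred in 5.13% of all promoters and 5.36% of member promoters, and the estrogen response element in 0.0700% and 0. A match is a description of the letters and not a binding site.

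Genes that act with these proteases were read from 4 lists. Of 22 genes of Mmp activation and control, 6 could be compared in epithelium, with none 2-fold apart and a median log2 ratio of -0.46. In stroma 14 could be compared, with 2 lower and 2 higher and a median of -0.03, beside 4.47% lower and 2.28% higher over all genes in stroma. Pcsk5, a proprotein convertase that removes prodomains, was lower in d/d stroma, at 626 CPM in f/f (880 UMIs) and 232 CPM in d/d (72 UMIs), a ratio of -1.43 (interval -1.80 to -1.09). Spock2, a testican, was at 157 and 61.1 CPM (ratio -1.36, interval -2.12 to -0.69). Plat, tissue plasminogen activator, was higher, at 81.1 and 203 CPM (ratio 1.32, interval 0.85 to 1.78), as was the protease trap A2m, at 37.0 and 129 CPM (ratio 1.80, interval 1.17 to 2.42).

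Of 10 partners of the sheddases, 6 could be compared in each class. None was 2-fold apart in epithelium (median 0.12), and 1 was higher in stroma (median 0.12), the Adam-binding endocytic protein Pacsin3, at 100.3 and 203 CPM, beside 2.28% higher over all genes. Of 22 shed membrane proteins, 7 could be compared in epithelium (median 0.10) and 6 in stroma (median 0.41), with none 2-fold apart. Of 19 matrix substrates, 8 could be compared in epithelium (median -0.20), with 1 lower and 1 higher beside 5.92% and 5.77% of all genes. Col12a1, a fibril-associated collagen, was lower there, at 63.7 CPM (98 UMIs) and 8.36 CPM (4 UMIs), a ratio of -2.93 (interval -4.83 to -1.53). Lamb3, a laminin chain of epithelial basement membrane, was higher, at 24.0 and 62.7 CPM (ratio 1.38, interval 0.64 to 2.12). In stroma 10 matrix substrates could be compared, with none 2-fold apart and a median of -0.20.

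Over all cells used, where 3.73% of all genes were lower and 3.68% higher, 19 of the activation and control genes could be compared, and 4 of them were higher (Pcsk6, Plau, Plaur and A2m). Of 17 shed membrane proteins, 1 was lower and 1 higher. The ErbB ligand Areg had 87 UMIs (15.8 CPM) in f/f and 4 UMIs (2.34 CPM) in d/d, a log2 ratio of -2.76 (interval -4.66 to -1.35). Csf1, a macrophage growth factor, was at 21.9 and 49.6 CPM (ratio 1.18, interval 0.76 to 1.59). None of 9 sheddase partners was apart, and of 15 matrix substrates 3 were lower (Vcan, Col12a1 and Vwf) and 2 higher (Fbn2 and Lamb3). The genes named only over all cells were chosen after their values were seen, and make-up and level per cell cannot be told apart in these sums either.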

How the data were processed

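The authors deposited raw UMI counts for each gene in each barcode, not normalized. Per the file headers they were made with Cell Ranger 9.0.0. The submitters' processing notes name the builds mm10 and GRCm39 with no role, so coordinates here come from the GRCm38 annotation matched by gene ID. Barcodes with at least 200 genes and at most 10% mitochondrial UMIs were used. Cells were put in 9 classes by 82 markers (1 of them, Cx3cr1, not in the tables) with at least 3 UMIs of at least 2 markers of the class and 3 times those of any other class. No doublet caller was used; cells with markers of several classes fell in no class, and leaving out the 5% of barcodes with the most UMIs was tried. Within classes a cell joined the marker group with the most UMIs, at least 2.

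UMIs were summed per library and class and scaled to CPM of the class total. A gene was compared with at least 50 UMIs over both libraries and called at 2-fold. There was 1 library per genotype (5517795 and 1712695 UMIs used), so no test was run. Sums have exact Poisson and ratios exact conditional binomial (Clopper-Pearson) intervals at 95%; a ratio with a count of 0 used 3 counts. The scripts were tested on simulated data with known changes.

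Clusters were made without the members in scanpy 1.11.5 (2000 variable genes, 30 principal components, 15 neighbours, Leiden resolution 1, igraph 0.11.9) and named by the same markers with a scoring rule chosen after the data were seen; a name means that cells are like that type. TMM factors came from edgeR 4.0.16 in R 4.3.3. Other tools were Python 3.11.15, numpy 2.4.6, pandas 2.3.3, scipy 1.17.1, anndata 0.12.19 and matplotlib 3.10.9.

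Members and lists were chosen with earlier results of these data known. Named members were all Timp genes, those 2-fold apart in epithelium or stroma with 0 outside the interval, the 5 with the most UMIs in epithelium, stroma or endothelium, and those 5-fold higher in 1 class than in each other; list genes were named by the same 2-fold rule.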

Additional observations from a re-analysis of the deposited data

Results flagged for a closer look

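Mmp7 stood out in cells that the comparisons by class did not use, those with too few marker UMIs for any class or with markers of several. There it had 19 UMIs (7.82 CPM) in the f/f library and 44 UMIs (50.3 CPM) in the d/d library, a log2 ratio of 2.69 (interval 1.88 to 3.54). In the epithelial cells the ratio was 0.41 (interval -0.61 to 1.34), from 34 and 14 UMIs, under the minimum of 50 set for a comparison. With a looser gate, and with Leiden clusters in place of the gate, Mmp7 was counted as at least 2-fold higher in d/d epithelium. It was not counted there in the other settings, so the contrast between these cells and epithelium depends on the gate. The cells without a class were 46.0% of the f/f and 53.1% of the d/d library, and the part of their make-up in this value was not tested.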

How the results depend on the processing

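The lower levels of Adamts16 in d/d epithelium and of Adamts19 in d/d stroma stayed at least 2-fold under every alternative run (log2 ratios -3.41 to -2.29 and -3.96 to -1.49). The counts of members 2-fold apart are small and moved. In epithelium the count of 3 became 5 with no barcode filter, 5 with a looser gate, 6 with Leiden clusters in place of the gate, 5 with a minimum of 20 UMIs, 1 with a minimum of 100 UMIs and 1 without the Lrp2 and Slc5a11 cells, the last an alternative chosen after seeing the data, in which 11 in place of 14 members reach 50 UMIs and Adamts10 leaves the count with its ratio kept at 1.10. In stroma the count of 2 became 4 with a mitochondrial share of at most 5%, 1 with Leiden clusters, 4 with the mean of per-cell CPM, 4 with a minimum of 20 UMIs and 1 with a minimum of 100. The same highest class in both libraries held for 15 of 23 members, and for 3 of 5 with a minimum of 100 UMIs, which leaves fewer genes. In the main run the 7 members highest in f/f endothelial cells could not agree, since d/d had too few endothelial cells to rank. Apart from the changes of minimum, the causes were not tested. Adamts10 in epithelium reversed to -0.044 with no barcode filter. Mmp28 ranged from -1.41 to -0.84 and Adamts4 from -2.86 to -0.74. Of 234 recomputed ratios of 26 named member and class pairs, 223 lay inside the main interval, 204 of them with the same sign and 19 with the other. TMM scaling moved all ratios by -0.04 in epithelium and -0.03 in stroma. No paired analysis was possible because there is 1 library per genotype, and for the same reason no library could be left out. Depth limits the d/d library, where 3 counts are 6.27 CPM in epithelium and 9.65 CPM in stroma.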
